A study of Homo sapiens with 40 samples.

Results

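The RNA exosome subunit mRNAs are the transcripts of EXOSC1 to EXOSC10, which were taken by gene symbol from 40 RNA-Seq count tables of HEK293 cells. All 10 were found among the 55765 gene symbols of the tables, and all 10 passed the filter on low counts in each of the 3 experiments. They were chosen by name and not by any measured value.

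The RNA exosome is a complex that degrades and trims RNA from its 3′ end in both nucleus and cytoplasm. Its human core is a barrel: EXOSC4, EXOSC5, EXOSC6, EXOSC7, EXOSC8 and EXOSC9 form a ring of proteins related to bacterial RNase PH that has lost its own catalysis, and EXOSC1, EXOSC2 and EXOSC3 form a cap of RNA-binding domains over the ring. EXOSC10 is a ribonuclease that joins the core mainly in the nucleus, while the ribonucleases DIS3 and DIS3L and cofactors such as the TRAMP, NEXT, PAXT and Ski complexes supply further activity and choose the substrates. In the cytoplasm the exosome acts on mRNAs whose poly(A) tail has been shortened, a step in which the Ccr4-Not deadenylase takes part.

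HEK293 is an established line of human embryonic kidney cells, and every library came from it. In RNA immunoprecipitation (RIP), untransfected cells gave total RNA and RNA recovered with antibodies against endogenous eIF4A1, eIF4A2 or DDX6, with 3 libraries in each of these 4 groups. eIF4A1 and eIF4A2 are paralogous DEAD-box helicases linked to translation, and DDX6 is a DEAD-box protein of mRNA repression and decay. In the gradient experiment, HEK293 cells were transfected either with a control siRNA or with one targeting CNOT1, which scaffolds Ccr4-Not, and RNA was sequenced from the input, from fractions 1 to 5 of a sucrose gradient (subpolysomal) and from fractions 6 to 11 (polysomal), with 4 libraries in each of 6 groups. In the TNRC6 experiment, 2 libraries of total RNA from cells with control siRNA stood beside 2 from cells that received siRNAs against TNRC6A and TNRC6B, which encode partners of Argonaute. The labels do not say whether replicates were separate cultures, so p-values measure the spread between these libraries, part of which may be technical. No mock precipitation was analysed here, so an IP was compared only with total RNA.

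The depth per library, in units of 1000000 counts, was 26.9 to 46 for RIP, 15.9 to 40.7 for the gradients and 15.4 to 28.8 for TNRC6. Levels are given as CPM, the count per 1000000 counts of the library's TMM-scaled total. CNOT1 was at 628 to 711 CPM in control inputs and at 36.8 to 41.4 CPM in CNOT1 siRNA inputs, TNRC6A at 178 to 189 CPM against 40.5 to 64.7 CPM, and TNRC6B at 67.6 to 73.1 CPM against 17.7 to 26.3 CPM. In 2 polysomal libraries the level of CNOT1 went against the label: it was 28.3 CPM in the library labelled control siRNA replicate 3 (470 to 501 CPM in the other 3), and 631 CPM in the library labelled CNOT1 siRNA replicate 3 (24 to 31.6 CPM in the other 3). The gradient comparisons were therefore fitted over all 24 libraries as labelled and over the 22 libraries left without these, and values are from the 24 where the number is not given. Of the markers of HEK293 cells, NEFL ranged from 66.1 to 1390 CPM over the 40 libraries and NEFM was higher still, while PAX2 did not exceed 1.57 CPM. Markers of leukocytes (PTPRC), hepatocytes (ALB), fibroblasts (LUM) and muscle (DES) stayed at or below 2.09 CPM.

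The exosome subunit mRNAs were compact. In GENCODE v44 on GRCh37, 1 canonical transcript per gene measured 842 to 5163 nt with a median of 1376 nt, against 3427 nt over the 12778 coding genes tested that had such a transcript. Their 5′UTRs were 12 to 102 nt long with a median of 32.5 nt, and 0 of 10 exceeded the median of 147 nt of coding genes. EXOSC6, on chromosome 16 from 70280681 to 70285843 (minus strand), departed from the others: it has a single exon, a 3′UTR of 4304 nt, the only 3′UTR of the 10 above the median of coding genes (1353 nt), and a coding sequence of 78.3% GC. EXOSC9, on chromosome 4 from 122722473 to 122738176 (plus strand), has 12 exons, a 3′UTR of 165 nt and a coding sequence of 42.0% GC.

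The study centres on purine-rich motifs, and 8 tetramers (AAGA or AGAA or GAAA or GAGA or AGAG or GGAA or AAAA or GAAG) were counted on the sense strand without overlap. EXOSC9 carried 5.68 of them per 100 nt of coding sequence, a density that 3.17% of coding genes exceeded. EXOSC6 carried 0.61 per 100 nt, a density that 99.4% exceeded. In the 5′UTR the order of the pair was the reverse. EXOSC6 carried 5 per 100 nt in a 5′UTR of 40 nt, and EXOSC9 0.9804 per 100 nt in 102 nt. The median of coding genes there was 1.651 per 100 nt. EXOSC8 and EXOSC10 were as high as EXOSC6, at 5 and 5.26 per 100 nt. In 5′UTRs this short 1 match moves the density far. The first 30 nt of both coding sequences are shown. The pair was chosen because EXOSC9 and EXOSC6 are the extremes of the coding-sequence count. As described further on, they are also the extremes of the eIF4A1 and DDX6 IP comparisons. In the eIF4A2 IP EXOSC4 fell furthest, and 96.1% of coding genes exceeded its coding-sequence density. Capitals mark the tetramers. A match is a description of letters, and 46.8% of coding genes held at least 1 tetramer in this window, as did 5 of the 10 members.
EXOSC9: atGAAGGAAAcgccactctcaaactgcgaa
EXOSC6: atgcctggggatcaccgccgcatccgcggc

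Some members share exonic bases with neighbours in that annotation, and whether the counting used strand is not given in the sources used here, although the library kit was stranded. EXOSC4 shares 762 of its 842 exonic bases with another protein-coding gene on the same strand, and EXOSC8, EXOSC9 and EXOSC10 share 303, 254 and 221 bases with a gene on the opposite strand (SUPT20H, CCNA2 and a long noncoding RNA). EXOSC3 shares 150 of 1813 bases with a protein-coding gene and EXOSC7 61 of 1042 with CLEC3B, both on the same strand. The counts of EXOSC3, EXOSC7, EXOSC8, EXOSC9 and EXOSC10 are uncertain for this reason, and those of EXOSC4 most of all.

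In total RNA of the RIP experiment, levels per transcript length spanned from EXOSC2, an RNA-binding cap subunit, at 84.4 ± 2.7 CPM per kb (SD, n = 3) to EXOSC6 at 7.26 ± 1.3 CPM per kb. EXOSC10 (70.2 ± 7.6 CPM per kb) and EXOSC9 (68.4 ± 3.7 CPM per kb) followed EXOSC2 and overlapped each other. EXOSC8, EXOSC7 and EXOSC5 lay at 50.7, 50.4 and 49.7 CPM per kb with overlapping libraries, and EXOSC1, EXOSC4 and EXOSC3 at 35.8, 25.4 and 18.3 CPM per kb, where each neighbour in the order also overlapped. In the control siRNA input the order began with the same 3 genes and ended again with EXOSC6, at 6.44 ± 0.32 CPM per kb (SD, n = 4). These levels per length move with the transcript chosen for each gene.

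**Figure D1:**
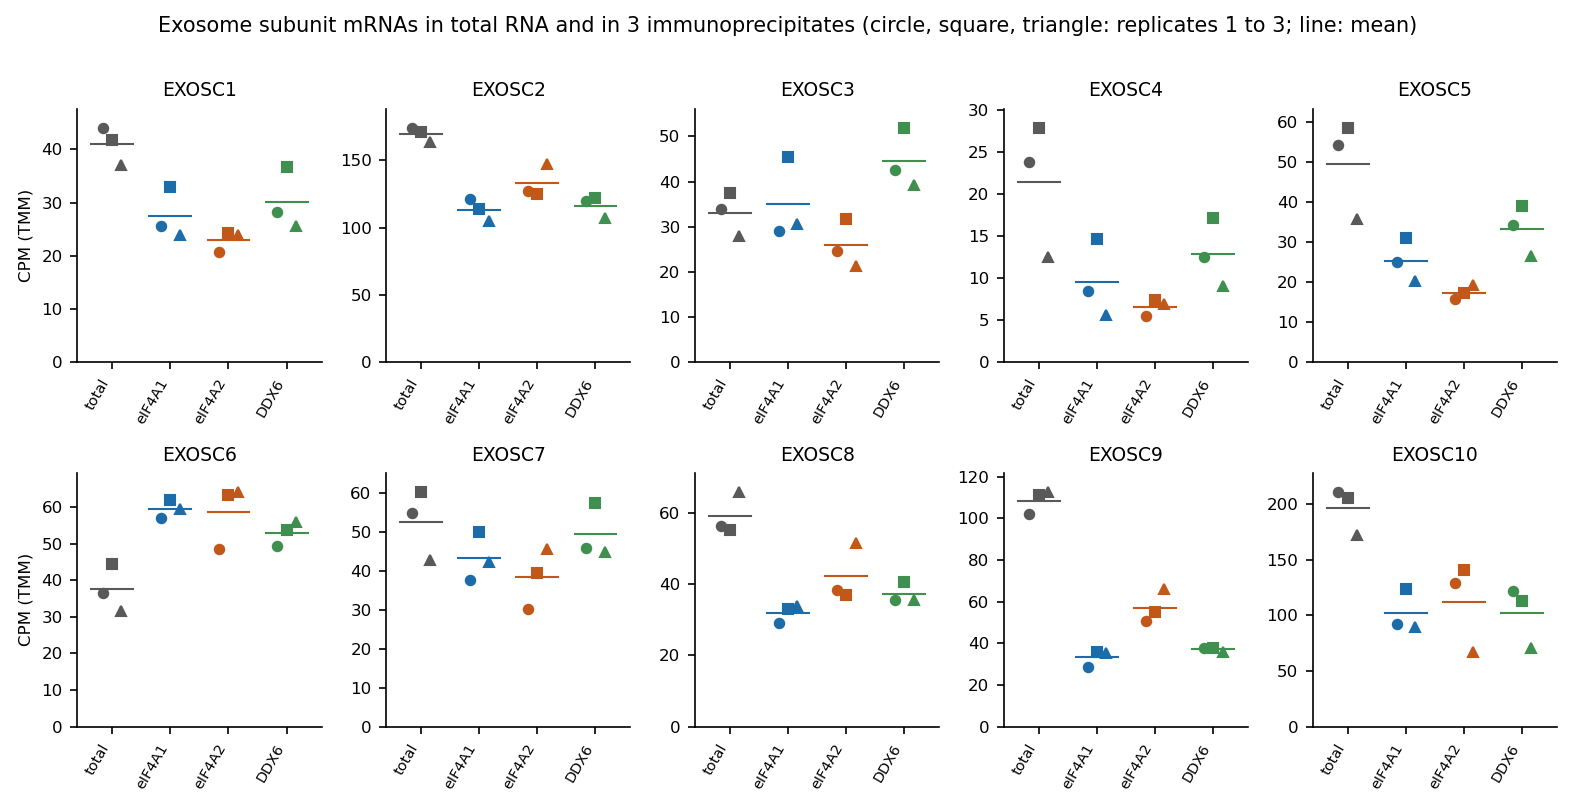
TMM-scaled CPM of each exosome subunit mRNA in the 3 libraries of total RNA and of each IP, with a line at the group mean. EXOSC9 sits at 102 to 113 CPM in total RNA and at 28.7 to 35.9 CPM in the eIF4A1 IP, and EXOSC6 is the subunit whose IP libraries all lie above its total RNA libraries for each of the 3 antibodies.

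The RIP comparisons ask which mRNAs each DEAD-box protein holds relative to the RNA of the cell. Most exosome subunit mRNAs were depleted from all 3 IPs, EXOSC6 alone was enriched in all of them, and EXOSC9 was the most depleted in the eIF4A1 and DDX6 IPs. In the eIF4A1 IP, 7 of 10 members fell and 1 rose at a Benjamini-Hochberg false discovery rate (FDR) below 0.05 in edgeR, where 26.5% of the 17474 genes tested fell and 26.1% rose. In the eIF4A2 IP 7 fell and 1 rose, against 25.8% and 24.5% of genes, and in the DDX6 IP 6 fell and 1 rose, against 23.3% and 22.7%. The median log2 fold changes of the 10 members were -0.73, -0.65 and -0.56 in the eIF4A1, eIF4A2 and DDX6 IPs, against 0.04, 0.01 and 0.01 over all genes. The 3 comparisons share their total RNA libraries, so they are not independent of each other.

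The replicate numbers paired the RIP libraries by the check given in the processing section, and with replicate as a block 8, 10 and 9 members were called in the eIF4A1, eIF4A2 and DDX6 IPs, where 64.5%, 62.4% and 60% of all genes were called in either direction. The total RNA library taken as replicate 3 has that number in its title and replicate 2 in its description, and the block and the statements on total RNA replicates 2 and 3 rest on the title. The block added EXOSC3 and EXOSC7 to the fallers in the eIF4A2 IP (blocked log2 fold changes -0.36 and -0.45), and in the DDX6 IP it added EXOSC4 as lower (-0.72) and EXOSC3 as higher (0.43). In the fit without the block, leaving out total RNA replicate 1 or DDX6 IP replicate 3 reduced the DDX6 count to 4 members (37.8% and 40.3% of all genes), with EXOSC1, EXOSC5 and EXOSC6 no longer called. Without total RNA replicate 2 or DDX6 IP replicate 1, EXOSC1 and EXOSC5 lost their DDX6 calls (edgeR adjusted p up to 0.153).

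Among the ring subunits, EXOSC9 was measured at 102, 111 and 113 CPM in total RNA, at 28.7, 35.9 and 35.4 CPM in the eIF4A1 IP, at 50.5, 55.0 and 66.0 CPM in the eIF4A2 IP and at 37.8, 37.8 and 35.8 CPM in the DDX6 IP. All total RNA libraries lay above all IP libraries. The fall was -1.70 ± 0.14 (log2 fold change ± SE, edgeR adjusted p = 1.63e-06) in the eIF4A1 IP, -0.92 ± 0.14 (adjusted p = 0.000102) in the eIF4A2 IP and -1.55 ± 0.14 (adjusted p = 1.03e-05) in the DDX6 IP. EXOSC8, another subunit of the ring, was at 55.1 to 65.9 CPM in total RNA and at 29.0 to 51.6 CPM over the 9 IP libraries, again without overlap. It fell by 0.89 in the eIF4A1 IP, by 0.48 in the eIF4A2 IP and by 0.67 in the DDX6 IP on the log2 scale. The eIF4A2 call for EXOSC8 was lost without total RNA replicate 3, eIF4A2 IP replicate 1 or eIF4A2 IP replicate 2, with an edgeR adjusted p of up to 0.0705.

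EXOSC6 rose. Its libraries read 36.4, 44.5 and 31.7 CPM in total RNA, 57.1, 61.9 and 59.4 CPM in the eIF4A1 IP, 48.4, 63.4 and 64.1 CPM in the eIF4A2 IP and 49.4, 53.6 and 55.9 CPM in the DDX6 IP. No IP library reached down to the highest total RNA library. The log2 fold changes were 0.66 ± 0.15 (edgeR adjusted p = 0.00251), 0.65 ± 0.15 (adjusted p = 0.00308) and 0.50 ± 0.15 (adjusted p = 0.0161), the last of which was lost without total RNA replicate 1 or 3 or DDX6 IP replicate 3 (0.39 to 0.48, adjusted p up to 0.0705). EXOSC7, a further ring subunit, overlapped between total RNA (42.8 to 60.1 CPM) and every IP (30.2 to 57.3 CPM) and was not called.

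EXOSC5, also of the ring, was at 54.3, 58.7 and 35.7 CPM in total RNA, at 25.0, 31.0 and 20.2 CPM in the eIF4A1 IP, at 15.8, 17.3 and 19.2 CPM in the eIF4A2 IP and at 34.3, 39.2 and 26.7 CPM in the DDX6 IP. Replicate 3 was the lowest in every group but the eIF4A2 IP. EXOSC5 fell by 1.51 ± 0.21 in the eIF4A2 IP (edgeR adjusted p = 7.25e-05), by 0.96 in the eIF4A1 IP and by 0.57 in the DDX6 IP on the log2 scale. EXOSC4, the remaining ring subunit, read 23.8, 27.9 and 12.5 CPM in total RNA and 5.50, 7.33 and 6.94 CPM in the eIF4A2 IP, where it fell by 1.70 ± 0.36 (adjusted p = 0.00145). In the eIF4A1 IP it fell by 1.16, a call lost without total RNA replicate 2 (-0.92, adjusted p = 0.063), and in the DDX6 IP it stood at -0.73 ± 0.35 and was not called.

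The transcripts of EXOSC4 and EXOSC5 are the most GC-rich of the members, at 64.0% and 60.7% GC, and the other members lie between 38.6% and 50.6%. The 2045 coding genes tested with at least 60% GC deviated from their group mean by a median of -0.22 (log2) in total RNA replicate 3, and by 0.11 and 0.12 in replicates 1 and 2. Between groups the same genes moved the other way from EXOSC4 and EXOSC5: their median log2 fold change was 0.40 in the eIF4A1 IP, 0.18 in the eIF4A2 IP and 0.21 in the DDX6 IP. The part of base composition in the values of EXOSC4 and EXOSC5 was not tested.

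The cap subunits split. EXOSC1 was at 44.1, 41.8 and 37.1 CPM in total RNA and at 20.8 to 36.6 CPM in the 9 IP libraries, and EXOSC2 was at 174, 171 and 164 CPM in total RNA and at 105 to 147 CPM in the IPs. Both sets of IP libraries lay below total RNA. EXOSC1 fell by 0.58, 0.84 and 0.44 (log2) in the eIF4A1, eIF4A2 and DDX6 IPs, and EXOSC2 by 0.58, 0.35 and 0.55, where the eIF4A2 value of EXOSC2 lost its call without either of total RNA replicates 1 and 2 or of eIF4A2 IP replicates 1 and 2 (edgeR adjusted p up to 0.0962). EXOSC3, the remaining cap subunit, had 33.95, 37.4 and 28 CPM in total RNA, 29.0, 45.5 and 30.6 CPM in the eIF4A1 IP, 24.7, 31.7 and 21.3 CPM in the eIF4A2 IP and 42.6, 52.0 and 39.2 CPM in the DDX6 IP. The DDX6 libraries all exceeded total RNA and the other IPs overlapped with it, and no difference from total RNA passed the test without the block.

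EXOSC10, the nuclear ribonuclease, was at 211, 206 and 172 CPM in total RNA, at 92.4, 124 and 89.5 CPM in the eIF4A1 IP, at 129, 141 and 66.9 CPM in the eIF4A2 IP and at 122, 113 and 70.5 CPM in the DDX6 IP. It was lower in every IP library than in every total RNA library, and replicate 3 was the lowest of each group. The log2 fold changes were -0.95 ± 0.26, -0.81 ± 0.26 and -0.95 ± 0.26, with edgeR adjusted p of 0.00875, 0.0206 and 0.0102. The eIF4A2 call was lost without total RNA replicate 1 or 2 or without eIF4A2 IP replicate 3 (adjusted p up to 0.0659).

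**Figure D2:**
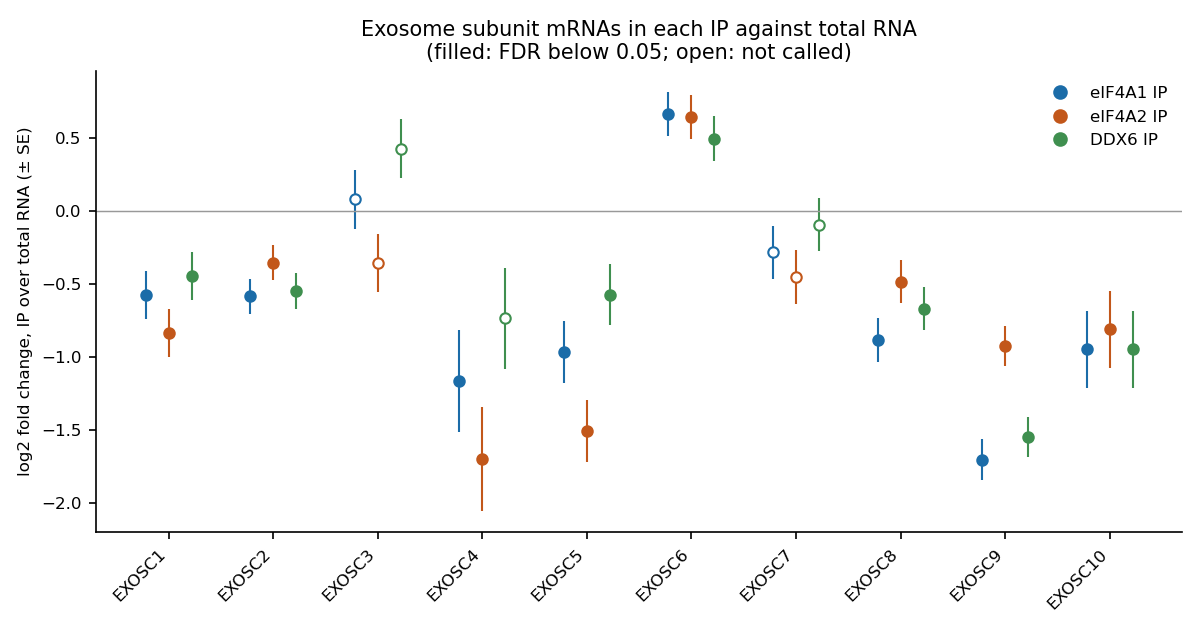
Log2 fold change of each exosome subunit mRNA in the eIF4A1, eIF4A2 and DDX6 IPs over total RNA, with bars of 1 SE and filled points where the FDR was below 0.05. EXOSC6 is above 0 in all 3 IPs, EXOSC9 reaches -1.70 in the eIF4A1 IP, and EXOSC3 runs from -0.36 in the eIF4A2 IP to 0.43 in the DDX6 IP without being called.

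The IPs were then compared with each other, which asks whether the 3 proteins hold different mRNAs. The 3 eIF4A2 libraries of EXOSC9, at 50.5 to 66.0 CPM, all exceeded the 6 eIF4A1 and DDX6 libraries, at 28.7 to 37.8 CPM. Those of EXOSC2 also did, at 125 to 147 CPM against 105 to 122 CPM. Those of EXOSC5 all lay below, at 15.8 to 19.2 CPM against 20.2 to 39.2 CPM. The share of all genes that separate like this was not computed. Against the eIF4A1 IP 0.973% of genes were called higher and 0.0858% lower. EXOSC9 was the single member called, with a log2 fold change of 0.78 ± 0.14 (edgeR adjusted p = 0.0158). This call was lost without replicate 3 of either IP (adjusted p of 0.0595 and 0.071) and when only the 6 compared libraries were fitted (0.78, adjusted p = 0.139). With the replicate block 4 members were called, against 15.8% of genes: EXOSC9 and EXOSC8 higher, EXOSC3 and EXOSC5 lower.

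Between the eIF4A2 and DDX6 IPs, EXOSC9 was higher with eIF4A2 by 0.62 ± 0.14 (log2, edgeR adjusted p = 0.00819), while EXOSC5 (-0.94 ± 0.21, adjusted p = 0.00945) and EXOSC3 (-0.78 ± 0.20, adjusted p = 0.0176) were lower, against 9.82% of genes higher and 11.3% lower. The EXOSC3 libraries of these IPs did not overlap, but the call was lost without eIF4A2 IP replicate 1, eIF4A2 IP replicate 3 or DDX6 IP replicate 2 (adjusted p up to 0.077). The block raised the count to 5 members, with EXOSC1 and EXOSC4 also lower, against 40.5% of genes. Between DDX6 and eIF4A1, 0 members were called, against 0.0801% of genes higher and 0.0114% lower, and with the block EXOSC3 was called higher in the DDX6 IP (0.36, adjusted p = 0.0443), against 9.9% of genes. Without the block the members' SEs in this comparison ran from 0.12 to 0.35 (log2). Differences of that size were not detectable, and the highest log2 fold change of a member, 0.427, was not called either.

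A list of 16 mRNAs of exosome cofactors and catalytic subunits was fitted beside the core. In the eIF4A1 IP 8 fell and 2 rose (26.5% and 26.1% of all genes), in the eIF4A2 IP 7 fell and 3 rose (25.8% and 24.5%), and in the DDX6 IP 4 fell and 2 rose (23.3% and 22.7%). SKIV2L2 (MTREX), the helicase of nuclear exosome cofactors, fell furthest in all 3 IPs, by 1.64, 1.42 and 1.35 (log2). PABPN1, a nuclear poly(A)-binding protein of the PAXT connection, rose most in the eIF4A1 IP (1.33) and the DDX6 IP (1.38), and PAPD7 (TENT4A), a noncanonical poly(A) polymerase, rose most in the eIF4A2 IP (1.24). Between the eIF4A2 and DDX6 IPs 1 cofactor was higher (ZCCHC8 of NEXT, 0.44) and 3 were lower, RBM7 of NEXT the furthest (-0.75), against 9.82% and 11.3% of genes. In the other pairs of IPs 0 of 16 were called, where few genes were called in either direction (1.06% for eIF4A2 against eIF4A1, 0.0916% for DDX6 against eIF4A1).

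**Figure D3:**
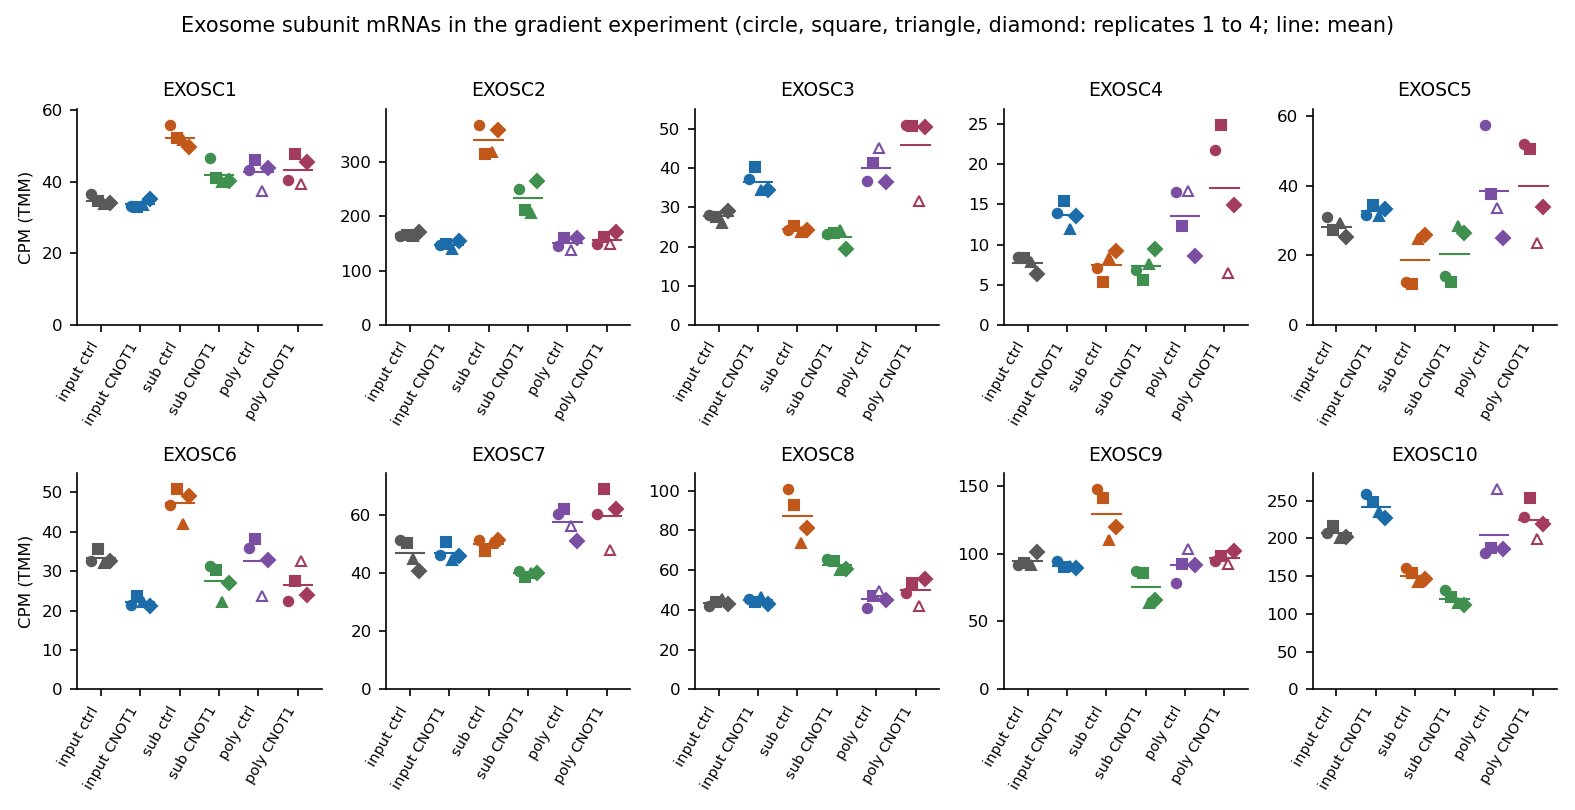
TMM-scaled CPM of each exosome subunit mRNA in input (input), subpolysomal (sub) and polysomal (poly) RNA after control (ctrl) or CNOT1 siRNA, 4 libraries each, with open triangles for the polysomal libraries of replicate 3 whose CNOT1 level goes against the label. EXOSC2 stands at 315 to 368 CPM in control subpolysomal RNA and at 138 to 160 CPM in control polysomal RNA, and EXOSC5 falls into 2 separate pairs of libraries in both subpolysomal groups.

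The polysomal and subpolysomal fractions separate mRNAs with many ribosomes from those with few or none, and the scaled values compare shares of each fraction, not amounts. With control siRNA the exosome subunit mRNAs were spread over both sides: EXOSC2, EXOSC8, EXOSC6, EXOSC9 and EXOSC1 lay towards the subpolysomal fractions, and EXOSC5, EXOSC4, EXOSC3 and EXOSC10 towards the polysomes. Of 10 members, 4 were called higher and 5 lower in polysomal RNA over the 24 libraries, against 34.8% and 37% of 16776 genes. In the 22 libraries 5 were higher, EXOSC7 being added at 0.22 (log2; in 24 libraries it was also called, at 0.26, without control polysomal replicate 4), and 5 lower, against 33.7% and 38.4% of 17115 genes.

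EXOSC2 leaned furthest from the polysomes, with 368, 315, 317 and 359 CPM in control subpolysomal RNA and 145, 160, 138 and 160 CPM in control polysomal RNA. The groups were far apart, and the log2 fold change was -1.17 ± 0.09 (edgeR adjusted p = 6.39e-11) in 24 libraries and -1.12 in 22. EXOSC8 was at 101, 92.6, 73.7 and 81.0 CPM in subpolysomal and 41.2, 46.8, 49.7 and 45.04 CPM in polysomal RNA, also without overlap, with a change of -0.93 ± 0.10 (adjusted p = 1.63e-08), and of -0.96 in 22 libraries. EXOSC3 was on the other side at 24.3, 25.3, 23.7 and 24.2 CPM against 36.6, 41.2, 45.2 and 36.5 CPM, a rise of 0.71 ± 0.13 (adjusted p = 2.03e-05), and of 0.66 in 22 libraries. EXOSC6, EXOSC9 and EXOSC1 stood at -0.53, -0.50 and -0.29 in polysomal RNA (-0.39, -0.55 and -0.225 in 22 libraries), and EXOSC10 was higher by 0.44 and, in 22 libraries, by 0.30.

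EXOSC5 and EXOSC4 had the highest fitted rises into polysomal RNA, 1.05 ± 0.29 and 0.86 ± 0.28 (1.13 and 0.76 in 22 libraries), but these values differed between sets of replicates. EXOSC5 was at 12.3 and 11.8 CPM in replicates 1 and 2 of control subpolysomal RNA and at 24.7 and 25.9 CPM in replicates 3 and 4, and with CNOT1 siRNA at 14.0 and 12.4 CPM against 28.4 and 26.5 CPM. Per gradient, the log2 ratio of polysomal to subpolysomal EXOSC5 with control siRNA was 2.18, 1.64, 0.44 and -0.04 in replicates 1 to 4, where the ratio of replicate 3 uses the doubted polysomal library. Fitted in replicates 1 and 2 alone, the changes were 2.00 for EXOSC5 and 1.22 for EXOSC4, given without a test because the set was chosen after seeing the data. In replicates 3 and 4 without the doubted libraries they were 0.10 and 0.09. This last set holds 1 polysomal library per siRNA, replicate 4, which the fit assumes to vary like the other groups, so its values are given without a test. The 1891 tested genes with at least 60% GC moved with this split: their median deviation from the group mean in control subpolysomal RNA was -0.33 and -0.41 in replicates 1 and 2 and 0.42 and 0.32 in replicates 3 and 4. The part of base composition was not tested. EXOSC1, EXOSC2, EXOSC6, EXOSC8 and EXOSC9 had negative values in both sets, with EXOSC1 at -0.26 and -0.10, EXOSC6 at -0.39 and -0.36 and EXOSC9 at -0.74 and -0.21. These sets of replicates were chosen after seeing the data.

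After CNOT1 siRNA the balance lay further towards the polysomes. In 24 libraries 6 members were called higher in polysomal than in subpolysomal RNA and 2 lower, against 34.1% and 34.7% of genes, and in 22 libraries again 6 and 2, against 36% and 35.9%. The median log2 change of the members was 0.47 in 24 and 0.54 in 22 libraries, against -0.01 over all genes in both, whereas with control siRNA it was -0.049 and -0.004, against -0.022 and -0.095 over all genes. EXOSC2 and EXOSC8 stayed lower in polysomal RNA, at -0.57 and -0.33 in 24 libraries and at -0.53 and -0.25 in 22. EXOSC9, lower with control siRNA, was now higher at 0.35 ± 0.11 (edgeR adjusted p = 0.00735), and at 0.39 in 22 libraries. This call was lost with no filter on low counts and when only the compared libraries were fitted (edgeR adjusted p up to 0.0739). In replicates 1 and 2 alone EXOSC9 stood at 0.17, and in replicates 3 and 4 without the doubted libraries at 0.68. These sets were chosen after seeing the data, so their values are given without a test. EXOSC10 stood at 0.91 ± 0.11 and EXOSC3 at 1.03 ± 0.13 (0.97 and 1.18 in 22 libraries). EXOSC5 and EXOSC4 were at 1.97 and 1.91 in replicates 1 and 2 and at 0.34 and 0.84 in replicates 3 and 4 without the doubted libraries, and EXOSC8 was at -0.34 and -0.09, where the latter set again holds 1 polysomal library per siRNA.

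**Figure D4:**
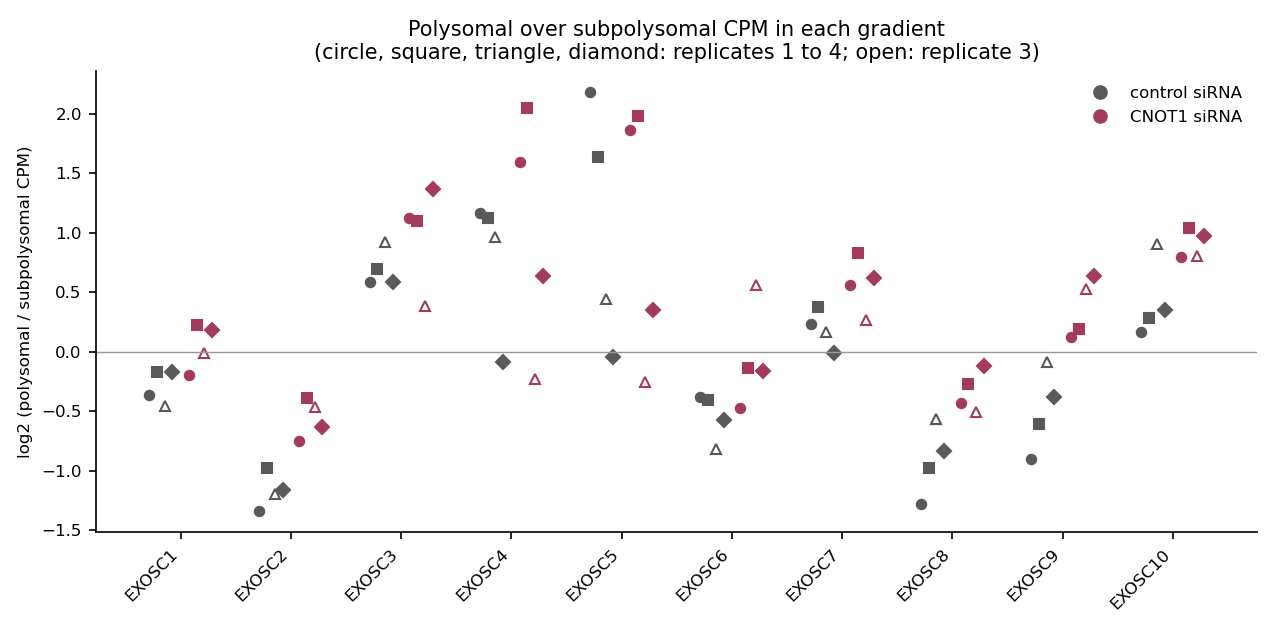
Log2 ratio of polysomal to subpolysomal CPM (0.5 CPM added to each) of each exosome subunit mRNA in 4 gradients with control siRNA and 4 with CNOT1 siRNA, the ratios of replicate 3 using the polysomal libraries whose CNOT1 level goes against the label. For EXOSC2, EXOSC8 and EXOSC9 each ratio with CNOT1 siRNA lies above each ratio with control siRNA, and EXOSC4 and EXOSC5 spread over more than 1 log2 unit within either siRNA.

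Whether CNOT1 siRNA changed the 2 fractions differently was tested directly, as the difference between its effect in polysomal and in subpolysomal RNA. Of the 10 members 3 passed in 24 libraries, all towards the polysomes (EXOSC9, EXOSC2 and EXOSC8), and 0 passed in the opposite direction, against 3.26% of genes higher and 2.4% lower. In the 22 libraries 6 passed, EXOSC10, EXOSC3 and EXOSC7 being added, and 0 in the opposite direction, against 9.99% and 7.51%. The sign was positive for 9 of 10 members in 24 libraries and for 10 of 10 in 22, and for 54.4% and 55.4% of all genes. The medians of the members were 0.43 and 0.55, against 0.05 and 0.07 over all genes.

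EXOSC9 showed the largest such difference of the members, 0.86 ± 0.16 (log2, edgeR adjusted p = 0.00226) in 24 libraries and 0.94 ± 0.16 (adjusted p = 0.000305) in 22. Its log2 ratio of polysomal to subpolysomal CPM was -0.90, -0.61, -0.09 and -0.38 in the 4 control gradients and 0.12, 0.19, 0.53 and 0.63 in the 4 CNOT1 siRNA gradients, where the third value of each set, here and for EXOSC2 and EXOSC8, uses a doubted polysomal library. All CNOT1 siRNA ratios were above all control ratios. In sets of replicates chosen after seeing the data, and so without a test, the fitted difference was 0.91 in replicates 1 and 2. It was 0.90 in replicates 3 and 4 without the doubted libraries, with 1 polysomal library per siRNA. EXOSC2 had ratios of -1.34, -0.98, -1.20 and -1.16 with control siRNA and of -0.75, -0.39, -0.47 and -0.64 with CNOT1 siRNA, and a difference of 0.60 ± 0.13 (adjusted p = 0.00754), or 0.59 in 22 libraries (adjusted p = 0.00248). EXOSC8 had ratios of -1.28, -0.98, -0.56 and -0.84 with control siRNA and of -0.43, -0.27, -0.51 and -0.12 with CNOT1 siRNA, and differed by 0.60 ± 0.14 (adjusted p = 0.0145), or 0.72 in 22 libraries (adjusted p = 0.000622). For both, all 4 ratios with CNOT1 siRNA lay above all 4 with control siRNA. EXOSC2 and EXOSC8 were no longer called when only the compared libraries were fitted (edgeR adjusted p = 0.0864 and 0.112) or with no filter on low counts (0.136 and 0.18). Replicates 3 and 4 without the doubted libraries gave 0.53 and 0.58. EXOSC10 differed by 0.67 ± 0.11 in 22 libraries (adjusted p = 0.000294) and by 0.46 ± 0.15 in 24 (adjusted p = 0.0745). It was called when either doubted polysomal library was left out alone (0.61 and 0.52), and leaving out the CNOT1 siRNA one also added EXOSC7 (0.48), which made 5 calls, against 6.14% of genes.

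The effect of CNOT1 siRNA within each fraction shows where these differences lay. In subpolysomal RNA 7 of 10 members fell and 0 rose, in both 24 and 22 libraries, against 19.1% lower and 13% higher of all genes in 24 libraries and 24.3% and 17.7% in 22. EXOSC9 went from 147, 141, 110 and 120 CPM to 87.2, 85.8, 63.9 and 65.5 CPM, with no overlap, a fall of 0.77 ± 0.11 on the log2 scale (edgeR adjusted p = 2.47e-05). EXOSC6 went from 46.8, 50.8, 41.95 and 49.1 CPM to 31.2, 30.2, 22.04 and 26.95 CPM, a fall of 0.77 ± 0.14 (adjusted p = 0.000239). EXOSC2 fell from 368, 315, 317 and 359 CPM to 250, 212, 205 and 265 CPM, again without overlap, by 0.54 ± 0.09 (adjusted p = 0.000145). EXOSC8, EXOSC7, EXOSC10 and EXOSC1 fell by 0.47, 0.33, 0.33 and 0.32, of which the EXOSC10 call was lost without control replicate 1 or without CNOT1 siRNA replicate 3 or 4 (adjusted p up to 0.07). In 22 libraries the 7 falls were within 0.01 of these values. With no filter on low counts EXOSC1, EXOSC7 and EXOSC10 were not called and 4 members were left, against 14% of genes. EXOSC3, EXOSC4 and EXOSC5 stood at -0.11, -0.02 and 0.12 and were not called. Fewer mRNA molecules in a fraction and a larger share of other RNAs there cannot be told apart in these data.

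In polysomal RNA 0 members and 0% of genes were called by edgeR in 24 libraries, where an unadjusted p under 0.05 was reached by 433 genes upwards and 690 downwards, 1 member among them, and DESeq2 also called 0 genes. In the 22 libraries EXOSC4 (0.71 ± 0.22), EXOSC3 (0.41 ± 0.10) and EXOSC10 (0.34 ± 0.08) were higher and EXOSC6 (-0.53 ± 0.12) lower, 3 and 1 of 10, against 17.1% and 14.6% of genes. For EXOSC6 the polysomal libraries with control siRNA read 35.8, 38.1, 23.6 and 32.8 CPM and those with CNOT1 siRNA 22.3, 27.4, 32.6 and 24.01 CPM in replicates 1 to 4. Replicate 3 is the low one of the first group and the high one of the second, and apart from it the groups do not overlap. Leaving out only the control polysomal library of replicate 3 already gave 2 calls, EXOSC6 at -0.42 and EXOSC10 at 0.29 (adjusted p = 0.0251 and 0.0284), against 16.6% of genes. Replicates 1 and 2 alone, a set chosen after seeing the data, gave 4 calls, against 37.5% of genes. Replicates 3 and 4 without the doubted libraries hold 1 polysomal library per siRNA, so no test is given. There EXOSC3, EXOSC4, EXOSC6 and EXOSC10 stood at 0.40, 0.73, -0.52 and 0.17.

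In input RNA, 2 members were higher and 1 lower after CNOT1 siRNA in 24 libraries, against 13.4% and 15.6% of genes. EXOSC6 went from 32.6, 35.7, 32.1 and 32.5 CPM to 21.4, 23.8, 22.2 and 21.1 CPM and EXOSC4 from 8.40, 8.34, 7.87 and 6.38 CPM to 14, 15.4, 12 and 13.6 CPM. Neither pair of groups overlapped, and the changes were -0.59 ± 0.14 (edgeR adjusted p = 0.00722) and 0.83 ± 0.27 (adjusted p = 0.0271). EXOSC3 rose from 28.1, 27.4, 26.1 and 29.1 CPM to 37.1, 40.2, 34.5 and 34.4 CPM, by 0.40 ± 0.12 (adjusted p = 0.021). Without control input replicate 3 or CNOT1 siRNA input replicate 2 the call of EXOSC6 alone was left, against 18.3% and 19.9% of genes, with EXOSC3 and EXOSC4 at adjusted p of up to 0.0667, and EXOSC4 also lost its call without control input replicate 4 (0.0748) or CNOT1 siRNA input replicate 1, and EXOSC3 without control input replicate 2 (0.0502). In the 22 libraries EXOSC10 was added at 0.23 ± 0.07 (adjusted p = 0.016), making 3 higher and 1 lower, against 19.6% and 21.1% of genes. The genes with at least 60% GC, among which EXOSC4 falls, had a median change of 0.15 in input, against 0.02 over other coding genes. The 7 members that fell in subpolysomal RNA include EXOSC1, EXOSC2, EXOSC7, EXOSC8 and EXOSC9, whose log2 changes in input lay between -0.17 and 0.04 and were not called. With the replicate block and 22 libraries EXOSC2 was called lower in input (-0.17, edgeR adjusted p = 0.046).

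**Figure D5:**
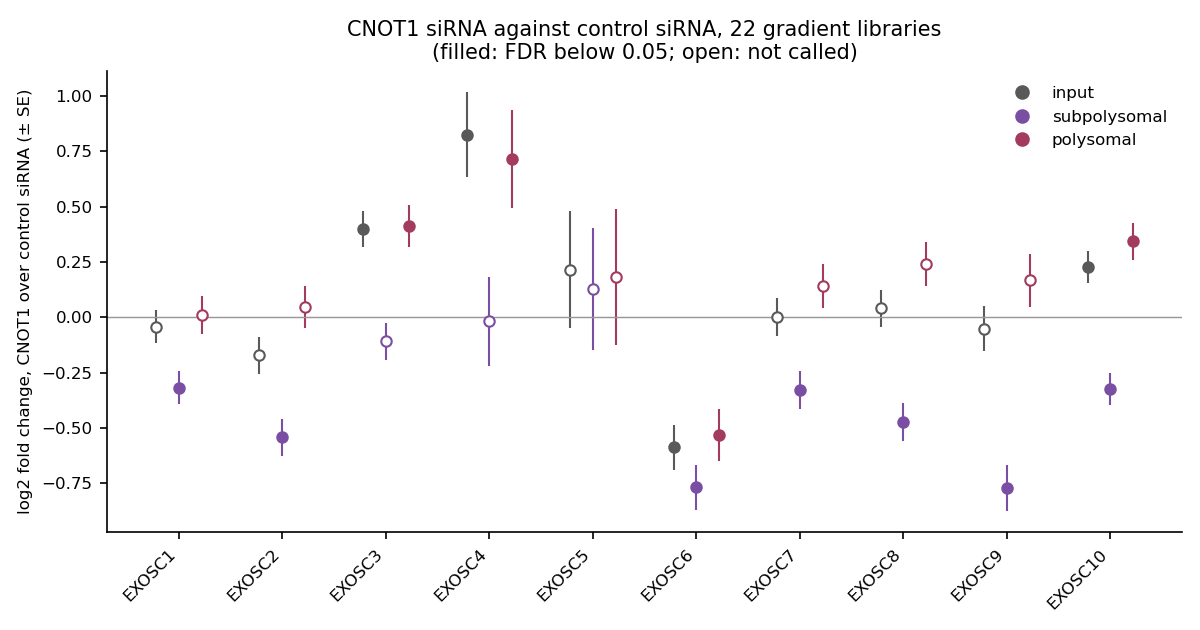
Log2 fold change of each exosome subunit mRNA after CNOT1 siRNA in input, subpolysomal and polysomal RNA over 22 libraries, with bars of 1 SE and filled points where the FDR was below 0.05. EXOSC6 is lower in all 3 kinds of RNA, 7 members are lower in subpolysomal RNA, and EXOSC3, EXOSC4 and EXOSC10 are higher in both input and polysomal RNA.

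EXOSC6 was the member called lower in all 3 kinds of RNA. After CNOT1 siRNA it was lower in input (-0.59), subpolysomal (-0.77) and polysomal RNA (-0.53) of the 22 libraries, and its difference between fractions was 0.23 ± 0.16 and not called. EXOSC3 was higher in input and polysomal RNA (0.40 and 0.41) and at -0.11 ± 0.08 in subpolysomal RNA. By summed level, the 10 members took 907 ± 54 CPM of control subpolysomal RNA and 651 ± 39 CPM of CNOT1 siRNA subpolysomal RNA (SD, n = 4), against 689 ± 12 and 711 ± 21 CPM in the inputs, sums to which EXOSC2, EXOSC9 and EXOSC10 contribute most.

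Among the cofactor mRNAs, CNOT1 siRNA raised 4 and lowered 1 of 16 in subpolysomal RNA over 24 libraries, against 13% and 19.1% of genes (5 and 2 over 22, against 17.7% and 24.3%), C1D being the furthest up (0.45) and SKIV2L (SKIC2), the helicase of the Ski complex, the furthest down (-0.44). In input 3 rose and 1 fell, against 13.4% and 15.6% (3 and 2 over 22 libraries, against 19.6% and 21.1%), with RBM7 at 0.45 and TTC37 (SKIC3), the scaffold of the Ski complex, at -0.52. In the test of the difference between fractions 0 of 16 cofactors were called in 24 libraries, against 3.26% of genes higher and 2.4% lower. In 22 libraries 1 was called (ZCCHC8, 0.65), against 9.99% of genes higher and 7.51% lower. The median difference of the cofactors was 0.02 in 24 and 0.17 in 22 libraries. In polysomal RNA, 0 of 16 cofactors and 0% of genes were called over 24 libraries. Over 22 libraries 3 cofactors rose and 1 fell, against 17.1% and 14.6% of genes, with ZCCHC8 at 0.48 and TTC37 at -0.46. Between the fractions themselves, WDR61 (SKIC8), a further Ski subunit, was the cofactor furthest towards the polysomes with either siRNA (0.98 and 1.20 in 24 libraries), 7 cofactors being higher and 3 lower with control siRNA (34.8% and 37% of genes) and 9 and 3 with CNOT1 siRNA (34.1% and 34.7%). The furthest down were ZCCHC8 with control siRNA (-0.58) and PAPD5 (TENT4B) with CNOT1 siRNA (-0.57), the latter replaced by TTC37 (-0.59) in 22 libraries. In the 22 libraries 5 cofactors were higher and 4 lower with control siRNA (33.7% and 38.4%), and 9 and 4 with CNOT1 siRNA (36% and 35.9%).

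In the TNRC6 experiment 0 members were called, and 0% of 14064 genes were called by edgeR in either direction, with 173 genes upwards and 116 downwards reaching an unadjusted p under 0.05, 0 members among them. DESeq2 called 6 genes higher and 2 lower, and 0 members. The members' log2 fold changes lay between -0.25 and 0.32 with SEs of 0.22 to 0.77. The siRNA targets TNRC6A (-1.80 ± 0.293) and TNRC6B (-1.68 ± 0.285) were themselves not called. With 2 libraries a group, changes far above their SE thus went uncalled, and the 0 calls say little about the members. EXOSC4 was at 10.46 and 2.62 CPM in the control libraries and 11.4 and 4.95 CPM in the TNRC6A/B siRNA libraries, and EXOSC5 was at 28.9 and 7.999 CPM and at 29.5 and 13.8 CPM. Replicate 2 was the low library in both groups, and there the genes with at least 60% GC deviated by a median of -0.57 and -0.37 (log2) from their group means. EXOSC1 was at 36.2 and 31.2 CPM against 33.2 and 33.05 CPM. Of the 16 cofactors 0 were called.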

How the data were processed

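RNA was sequenced from stranded Illumina libraries. The deposited tables hold raw read counts per gene symbol: the authors aligned reads to hg19 with TopHat2 and counted them with HTSeq. A deposited table of the authors' own edgeR comparisons was not used.

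Counts were fitted with edgeR 4.0.16 (R 4.3.3; filterByExpr, TMM factors, quasi-likelihood F-test, two-sided), 1 fit per experiment over 12, 24 or 4 libraries, with the Benjamini-Hochberg FDR over all genes tested and a threshold of 0.05. CPM use TMM-scaled totals. DESeq2 1.42.0, other factors, no filter, left-out libraries and a replicate block were alternatives. Same-numbered RIP libraries deviated together (r of 0.184 to 0.782 in every pair), so their numbers were taken as pairs in the block. RIP values are from the fit without the block where it is not named. In the gradient experiment r ran from -0.562 to 0.736. Between control and CNOT1 siRNA it was 0.586 to 0.736 for subpolysomal libraries and 0.195 to 0.358 for inputs. For polysomal libraries, which include the doubted ones, it was -0.562 to 0.102. Pairing was not assumed for the experiment as a whole. With the block over 24 libraries 7 members were called in subpolysomal RNA and 3 in input, against 34.5% and 31.8% of genes. All 50 pairs of replicates differed by more than sampling noise (mean chi-square per gene of 5.08 to 130). The fits were also run on simulated counts without shared replicate deviations or doubtful labels, so that run does not show how they behave with either. The members, lists and tests were chosen with earlier results of these data known. All members are named. Cofactors are named where called with the largest rise or fall of their comparison.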

Additional observations from a re-analysis of the deposited data

Results flagged for a closer look

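The effect of CNOT1 siRNA differed between polysomal and subpolysomal RNA, by an edgeR test of the difference itself, for EXOSC9 (0.86 on the log2 scale), EXOSC2 (0.60) and EXOSC8 (0.60). Each member was also examined in the 6 gradient groups for a library far from the other 3, by Dixon's criterion at 95%, which chance meets in about 1 group in 20. Of 60 such sets 5 met it. EXOSC3 was low in CNOT1 siRNA polysomal replicate 3 (31.7 CPM) and EXOSC10 high in control siRNA polysomal replicate 3 (265 CPM), the libraries whose CNOT1 level goes against the label. EXOSC1 was high in CNOT1 siRNA subpolysomal replicate 1 (46.5 CPM), EXOSC2 in control siRNA input replicate 4 (171 CPM) and EXOSC6 in control siRNA input replicate 2 (35.7 CPM).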

How the results depend on the processing

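Of the 66 member differences called in a fit over all libraries of an experiment or over 22 gradient libraries, 0 changed sign under any alternative. With other factors and with the replicate block all 66 stayed on their side of the threshold. With DESeq2 65 stayed and 1 gained the call. With no filter on low counts 56 stayed and 10 lost the call. With only the compared libraries 59 stayed, 6 lost the call and 1 gained it. Of 522 values with 1 library left out 479 stayed, 37 lost the call and 6 gained it. The 22-library fits helped to choose the 66, so they are not counted here, nor are sets of replicates chosen after seeing the data. The counts of members called below are each followed by the share of all genes that the same fit called in either direction. With the replicate block they were 4 for eIF4A2 against eIF4A1 (15.8%), 5 for eIF4A2 against DDX6 (40.5%) and 1 for DDX6 against eIF4A1 (9.9%). In 22 libraries they were 4 for CNOT1 siRNA in input (40.6%), 4 in polysomal RNA (31.7%) and 6 for the difference between fractions (17.5%), and with the replicate block added 5 (46%), 4 (36.9%) and 7 (22.8%). When only the compared libraries were fitted they were 0 for eIF4A2 against eIF4A1 (0.142%), 6 for input (61%) and 1 for the difference between fractions (0.951%). With no filter on low counts they were 4 in subpolysomal RNA (14%) and 1 for the difference between fractions (2.59%). Replicates 1 and 2 alone gave 4 in polysomal RNA (37.5%) and 7 for the difference between fractions (22.1%). Replicates 3 and 4 without the doubted libraries leave 1 polysomal library per siRNA, so no counts are given for them. Both of these sets were chosen after seeing the data. Leaving out 1 library at a time gave 4 to 7 for DDX6 against total RNA (36.9% to 40.6%), 0 to 1 for eIF4A2 against eIF4A1 (0.257% to 1.26%), 1 to 3 for input (17.2% to 20.7%), 0 to 2 for polysomal RNA (0% to 16.6%) and 3 to 5 for the difference between fractions (3.62% to 11.9%). The cause of these changes was not tested. In the TNRC6 experiment, where the libraries share only a number, the block called 0 members, and leaving out a library leaves a group of 1, assumed to vary like the other group. With 2 to 4 libraries a group, differences well above their SE could also go uncalled, so a member without a call may still differ.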
